A study of Mus musculus with 12 samples.

Results

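The 83 cytosolic ribosomal protein genes were followed across mouse embryonic stem cells that lack Dicer1 or Dgcr8. Members were taken by symbol: genes named Rpl or Rps with a number, plus Rplp0, Rplp1, Rplp2 and Rpsa, without pseudogenes and without the Rps6k kinases. The rule found 83 of the 18412 genes in each of 4 tables, 52 of the large and 31 of the small subunit. It used no measured value. Rpl34, Rps27 and Rps4l were not analysed here.

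The study sequenced polyadenylated RNA, with strand-specific libraries, from 4 groups of 3 libraries. The Dicer series set a Dicer1-/- line against the wild-type line TFC, and the Dgcr8 series set a Dgcr8-/- line against the wild-type line V6.5. All cells grew on gelatin in medium with fetal bovine serum and leukemia inhibitory factor, with no other treatment named. Each group is 1 line, so genotype and line cannot be told apart, and no label says that replicates were separate cultures. The p-values therefore speak of the scatter among these libraries, which could be technical.

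A ribosome is built of a large and a small subunit, each a shell of ribosomal proteins around ribosomal RNA. Cells make the proteins in matched amounts and destroy those left unbound. Most of the messages begin with a 5′ terminal oligopyrimidine tract (TOP), a C followed by a run of C and T, through which the growth-regulating kinase mTOR and the RNA-binding protein Larp1 set their translation. Dicer cuts microRNA precursors and Dgcr8 is the partner of Drosha in the step before, so either loss removes most microRNAs. Many ribosomal protein genes also carry small nucleolar RNAs (snoRNAs), which guide ribosomal RNA modification, in their introns.

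The bases around the annotated start show runs of pyrimidines of differing length. Each line gives 10 bases before to 20 bases after the first RefSeq start listed (GRCm38.p6), 5′ to 3′ on the gene's strand, with the longest run of C and T that begins with C and holds at least 5 bases in capitals. The first 6 are members described below that have a tract near the start, and the rest set 3 genes of the paralogue group beside Rpl39. The same window of Rpl10, the partner of Rpl10l, is not printed and held no such run.
Rps10, chr17:27635225-27635254, minus strand: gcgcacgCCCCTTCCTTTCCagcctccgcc
Rpl22l1, chr3:28805498-28805527, plus strand: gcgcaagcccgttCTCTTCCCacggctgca
Rpl38, chr11:114668570-114668599, plus strand: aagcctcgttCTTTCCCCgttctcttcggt
Rpl15, chr14:18270967-18270996, minus strand: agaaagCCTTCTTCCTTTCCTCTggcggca
Rps6, chr4:86857348-86857377, minus strand: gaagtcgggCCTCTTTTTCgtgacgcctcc
Rplp2, chr7:141447641-141447670, plus strand: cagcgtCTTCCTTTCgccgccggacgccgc
Rpl39, chrX:37085203-37085232, minus strand: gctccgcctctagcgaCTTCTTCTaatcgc
Rpl39l, chr16:10170218-10170247, plus strand: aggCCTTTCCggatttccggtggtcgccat
Rpl10l, chr12:66284382-66284411, minus strand: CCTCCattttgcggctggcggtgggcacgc
Rps27l, chr9:66946076-66946105, plus strand: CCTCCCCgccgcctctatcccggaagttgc

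RefSeq starts were at hand for 63 of the 83 genes. A C-led run of at least 7 pyrimidines lay between 30 bases before and 50 after a start in 49 of the 63 (77.8%), against 36.8% of 14124 genes of the tables with a listed start. Rpl10l was among the 14 members without one, and its partner Rpl10 was not. The letters CCGGAAGT, on either strand and anywhere in the 300 bases from 250 before to 50 after a start, stood in 12 of 63 members (19.0%) and in 6.60% of all genes, and TATAAA on either strand in 12.7% and 12.3%. A match is only a match of letters.

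The deposited columns are group means, and whole reads per library could be worked back from them. The 3 libraries of a group carry no replicate number and are lettered: A is the one that correlated least with the other 2 in exonic reads. Recovered exonic totals ran from 5889725 reads in V6.5 library A to 31545733 in TFC library A. Each group holds 1 such A library with a different profile. The deposited means of the targeted genes were 1590 normalised reads for Dicer1 in the knockout against 3239 in wild type, and 804 for Dgcr8 against 2528. All 10 embryonic stem cell markers had group means of at least 100 in the 4 groups. Their means summed to 166676 in the Dicer knockout, 142902 in TFC, 124621 in the Dgcr8 knockout and 69977 in V6.5. Over libraries the sum ran from 132847 to 150991 in TFC and from 44970 to 109186 in V6.5. In each knockout only 8 of the 10 could be worked back per library. Summed fibroblast markers ranged over libraries from 447 to 713 in the Dicer knockout, 422 to 846 in its wild type, 588 to 1443 in the Dgcr8 knockout and 5769 to 13475 in V6.5, and 6 of the 10 passed 100 in V6.5 against 2 in each other group. Trophectoderm markers summed to 10521 to 14170 in V6.5 and 1397 to 2659 in its knockout. Mesoderm and streak markers summed to 279 to 3980 and 45.1 to 97.6, and primitive endoderm markers to 673 to 1191 and 172 to 279. Neural markers overlapped, at 1645 to 6994 and 2575 to 3333. The part of these marker differences in the Dgcr8 comparison was not tested.

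In library A, 8 ribosomal protein genes stood more than 4-fold above the mean of B and C in each of the 4 groups: Rpl8, Rpl13, Rpl18, Rpl36, Rps26, Rps29 and the stalk proteins Rplp1 and Rplp2, which recruit elongation factors to the ribosome. Counted by group, 8 and 13 of 67 members in the Dicer knockout and wild type were that far above, against 13.5% and 19.3% of all genes, and 18 and 18 of 70 in the Dgcr8 knockout and V6.5, against 14.1% and 12.7%. Rplp1 had, in libraries A, B and C, 15878, 159 and 210 normalised reads in the Dicer knockout and 31673, 60 and 431 in the wild-type ones. In the Dgcr8 series it had 17554, 110 and 79.9 in the knockout against 24896, 227 and 73.3. Its A and B or C libraries thus stood far apart in every group. Another 8 genes were lower in A in all 4 groups: Rpl5, Rpl9, Rpl21, Rpl22, Rpl23, Rps3a1, Rps25 and Rps27a. Transcripts of the first set had a median GC content of 57.2% and those of the second 49.1%, against 51.8% over the 83 genes. Over 66 members the log2 difference of A from B and C had a Pearson r of 0.968 to 0.986 between groups, as a description over genes that share their libraries. Its r with GC content over members was 0.510, 0.523, 0.594 and 0.552 in DicerKO, DicerWT, Dgcr8KO and Dgcr8WT, and over all genes 0.555, 0.558, 0.744 and 0.600, higher in each group. Counts of members are therefore also given within A and in B and C.

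**Figure D1:**
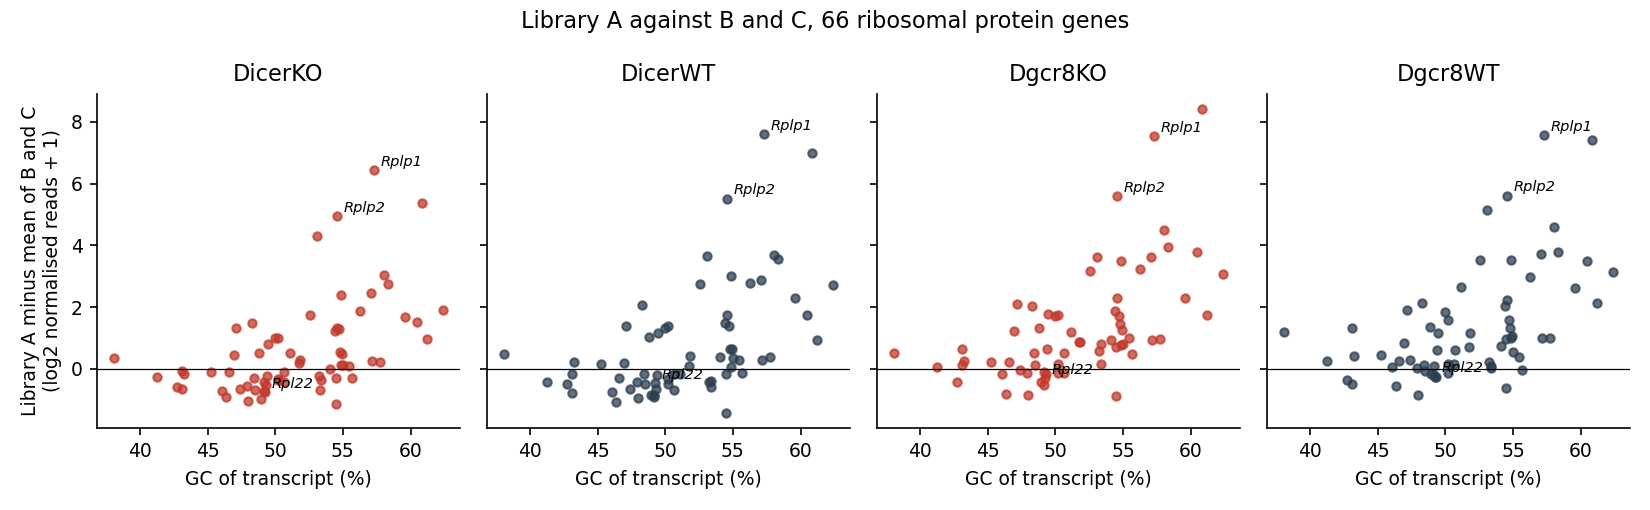
Log2 difference of library A from the mean of libraries B and C (normalised reads + 1) against the GC content of the transcript, 1 panel a group and 1 point for each of 66 ribosomal protein genes. Rplp1 sits at 6.43 in DicerKO and 7.61 in DicerWT, and the 8 genes below 0 in every group have a median GC content of 49.1%.

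In the Dicer series most ribosomal protein messages were lower in the knockout than in wild type. Over the deposited group means, 79 of 82 members above 0 had a knockout to wild-type ratio below 1, with a median of 0.721 and a range of 0.233 to 1.35. Among 13245 genes whose 2 group means averaged 10 or more, 55.2% had a ratio below 1, with a median of 0.936. Together the members took 3.50% of all exonic signal in the knockout and 4.71% in wild type. In this bulk measure, fewer cells of a type and less RNA per cell cannot be told apart.

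Per library, 67 members could be tested, and 59 of them were lower in the Dicer knockout. The median log2 difference was -0.41, against -0.01 over 13171 genes. No member passed an adjusted p of 0.05 in limma on log2(normalised reads + 1), where 1.25% of all genes did, and none passed in limma-voom on the recovered reads, where 0.569% did. Unadjusted limma p-values under 0.05 were found for 10 members, a share close to the 14.5% of all genes, and for 17 in limma-voom, against 13.6%. In 20 members all 3 knockout libraries lay below all 3 wild-type libraries and in 0 above, where 9.63% and 11.7% of all genes did so. The members include 41 of the large subunit with a median of -0.45 and 26 of the small with -0.37, of which 36 and 23 were lower. The remaining members are those with the most reads, for which the deposited mean allowed more than 1 set of whole reads, and Rpl3l, under the minimum mean, and Rpl32l, which is listed at 0.

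Limma was also run with a term for the library set (A against B and C). At an adjusted p under 0.05, 23 of the 67 members were then lower and 0 higher, against 4.95% and 7.25% of all genes. The A libraries were picked from these same values, and no label names a batch. Adjusted p-values with the term, or in B and C alone, may therefore be too small, here and below. With B and C alone, 8 were lower (Rpl9, Rpl22l1, Rpl23, Rpl31, Rpl36al, Rps10, Rps13 and Rps20) and 0 higher, against 2.24% and 3.47%. Without wild-type library A, Rps20 was called (log2 difference -0.999, adjusted p = 0.0436 in limma), 1 of 67 members where 1.26% of all genes were lower. Within A, 65 of 67 members were lower, against 51.9% of all genes, with a median of -0.52 against -0.03. In B and C together 55 were lower, against 50.2% of all genes, with a median of -0.38 against -0.004. In both, 54 members were lower.

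Rps10, a protein of the small subunit head, had 6282, 6136 and 5294 normalised reads in A, B and C of the knockout, and 13008, 11019 and 9274 in wild type. Every knockout library lay below every wild-type one. The log2 difference was -0.90 (SE 0.24), with an adjusted p in limma of 0.127, and 0.00320 with the library set term. Rps20 had 6437, 7840 and 7625 against 10868, 15826 and 13361, also without overlap (-0.86, SE 0.25, adjusted p in limma 0.158 and 0.00314 with the term). Rps13 had 5971, 5341 and 5168 against 10038, 10786 and 8136, without overlap (-0.81, SE 0.23, adjusted p in limma 0.151 and 0.00643 with the term). Within A, Rps10, Rps20 and Rps13 stood at -1.05, -0.76 and -0.75, and in B and C at -0.83, -0.91 and -0.83, so these genes of the small subunit were lower by similar amounts in libraries of either kind.

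Rpl11, which together with Rpl5 carries 5S ribosomal RNA and can hold the p53 ligase Mdm2, had 5060, 6471 and 6074 normalised reads against 8458, 8755 and 10355. Its groups did not overlap (log2 difference -0.65, SE 0.23, adjusted p in limma 0.244 and 0.0121 with the term). Rpl5 had 14907, 23120 and 22081 against 21372, 30926 and 28722, and its groups overlapped since wild-type library A was low. Rpl13, among the genes of high GC content, had 13873, 2811 and 2311 against 30494, 4560 and 3832 (-0.85, SE 0.87, adjusted p in limma 0.712 and 0.00668 with the term). Rpl13 was lower within A and again in B and C, while knockout A exceeded wild-type B and C. Rps19, lost in Diamond-Blackfan anaemia, had 3518, 1146 and 1058 against 6174, 953 and 1684, with B and C of the groups overlapping.

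The 5 members with the highest differences in the Dicer series were Rpl36 (0.56, SE 2.03), Rpl10l (0.42, SE 0.36), Rpl41 (0.27, SE 0.80), Rpl18 (0.23, SE 1.05) and Rplp2 (0.13, SE 1.70). Rpl36 had 5606, 114 and 157 normalised reads in the knockout and 7961, 33.8 and 112 in wild type. Within A it was lower by 0.51 on the log2 scale and in B and C it was higher by 1.10, so its direction is set by which libraries are read. Rpl18, Rpl41 and Rplp2 were likewise lower within A and higher in B and C. Of the 67 members, Rpl10l alone was higher within A and in B and C alike.

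**Figure D2:**
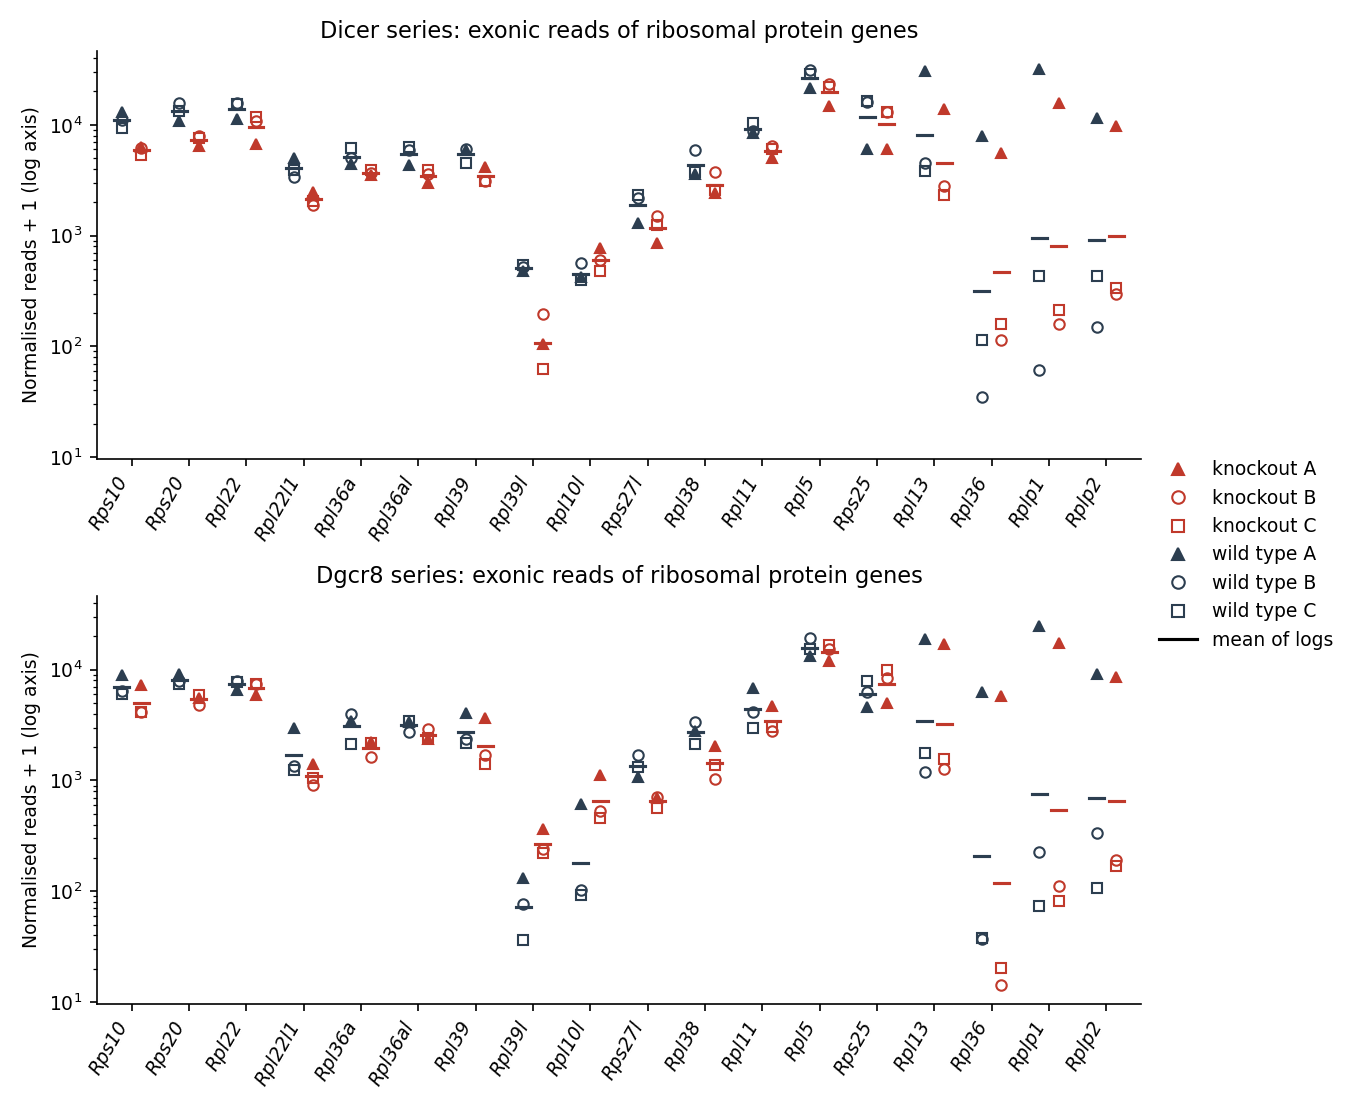
Normalised exonic reads + 1 (log axis) of 18 ribosomal protein genes in each library of the Dicer series (top) and the Dgcr8 series (bottom), with knockout in red, wild type in dark blue, library A as filled triangles, B and C as open circles and squares, and a bar at the mean of the logs. The 4 genes at the right, Rpl13, Rpl36, Rplp1 and Rplp2, split by library, and Rpl39l splits by genotype in opposite directions.

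In the Dgcr8 series the family as a whole was nearer to the other genes. Over group means, 65 of 82 members had a ratio below 1, with a median of 0.892, against 53.8% and 0.954 over all genes. Members took 3.55% of the exonic signal in the knockout and 3.97% in V6.5. Of 70 members tested, 58 were lower, with a median log2 difference of -0.19, against -0.08 over 12753 genes. Without wild-type library A that median was 0.01, with 33 of 70 lower, and without knockout library B it was -0.01, with 35 lower. Without knockout library A it was -0.54. The 70 leave out Rpl3l, Rpl32l and the abundant members with more than 1 set of whole reads. Of these abundant members, Rpl4, Rpl13a, Rps6, Rps23 and Rpsa had higher group means in the knockout than in V6.5. Rpl3, Rpl6, Rpl7, Rpl17, Rps2 and Rps4x had lower ones. The count of 58 therefore does not speak for the untested members, which the ratios of group means above include where above 0.

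No member passed an adjusted p of 0.05 in limma in the Dgcr8 series, where 1.26% of all genes did, and none in limma-voom, where 0.416% did. Unadjusted p-values under 0.05 were found for 5 members in each, against 16.2% of all genes in limma and 17.2% in limma-voom. The knockout lay below wild type without overlap in 9 members and above in 1 (Rpl39l), against 11.9% and 10.6% of all genes. With the library set term 4 members were lower (Rpl38, Rplp0, Rps20 and Rps27l) and 2 higher (Rpl10l and Rpl39l), against 8.62% and 8.33%. With B and C alone 5 were lower (Rpl10a, Rpl38, Rplp0, Rps10 and Rps27l) and 2 higher (Rpl10l and Rpl39l), against 9.39% and 8.95%. Without wild-type library A, Rpl10l was called higher (log2 difference 2.73, adjusted p = 0.0471 in limma), 1 of 70 members where 1.55% of all genes were higher. Within A, 56 of 70 were lower, against 54.8% of all genes, with a median of -0.15 against -0.09. That pair of libraries differed in depth, at 30767908 recovered exonic reads in the knockout and 5889725 in V6.5. In B and C 54 were lower, against 52.4% of all genes, with a median of -0.17 against -0.05.

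Rps27l, a paralogue of Rps27 that p53 can induce, had 687, 706 and 564 normalised reads in the Dgcr8 knockout against 1074, 1688 and 1329 in V6.5. The groups did not overlap (log2 difference -1.05, SE 0.29, adjusted p in limma 0.129 and 0.0119 with the term). In the Dicer series it had 859, 1499 and 1246 against 1298, 2196 and 2308, where knockout B exceeded wild-type A (-0.68, SE 0.32, adjusted p 0.387 and 0.0274 with the term in limma). Rpl38, a large-subunit protein linked to the translation of Hox messages, had 2055, 1033 and 1370 against 2813, 3335 and 2136 in the Dgcr8 series (-0.93, SE 0.33, adjusted p in limma 0.218 and 0.0258 with the term). Rps20 had 5590, 4830 and 5958 against 9184, 7955 and 7370, so it was lower without overlap in both series.

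Rplp0, the base of the stalk, had 28394, 6080 and 6161 normalised reads in the Dgcr8 knockout against 37564, 14517 and 9085 in V6.5 (log2 difference -0.74, SE 0.72, adjusted p in limma 0.704 and 0.0414 with the term). In the Dicer series it had group means of 21154 and 32222 and no test. Rplp1 and Rplp2, which bind Rplp0 as dimers, had log2 differences of -0.47 (SE 2.59) and -0.08 (SE 1.94) in the Dgcr8 series and -0.21 (SE 2.30) and 0.13 (SE 1.70) in the Dicer series. Beside errors of that size, both genes had in the A libraries 8615 to 31673 reads over all groups, against 60 to 431 in B and C. The highest differences in the Dgcr8 series after Rpl39l and Rpl10l were those of Rps25 (0.30), Rpl14 (0.24) and Rps21 (0.18), each with overlapping groups.

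**Figure D3:**
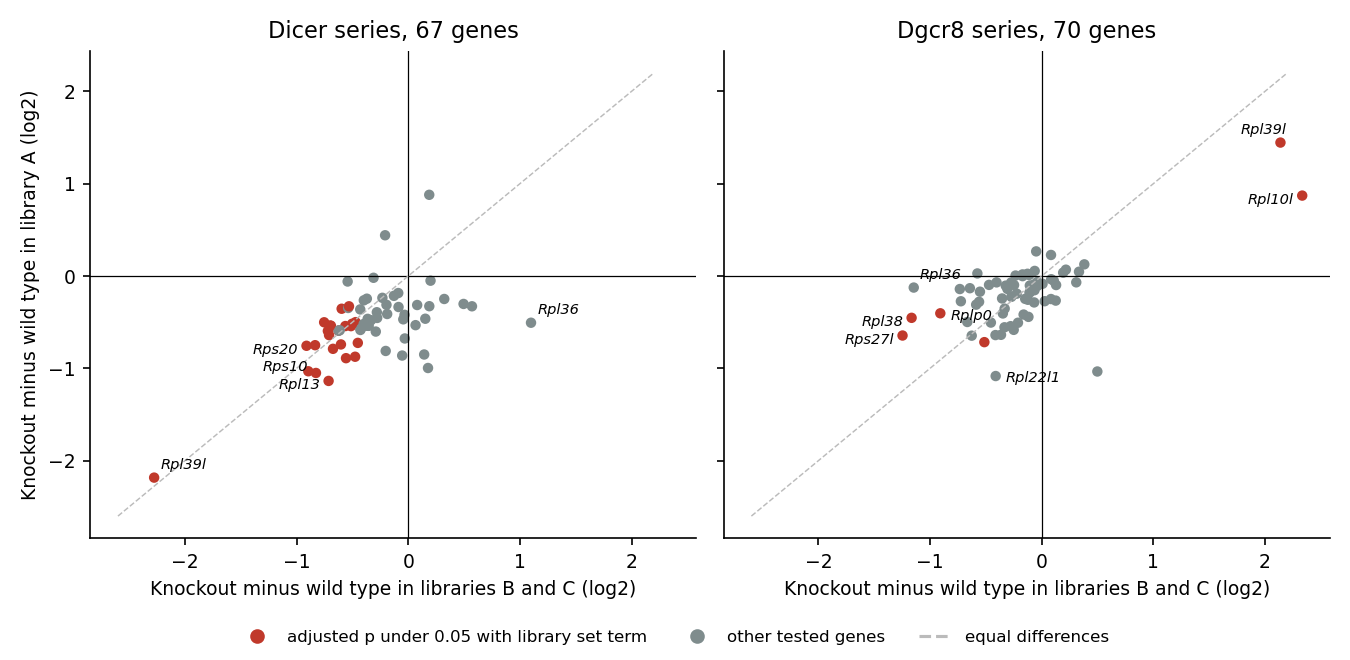
Knockout minus wild type on the log2 scale in library A (vertical) against that in libraries B and C (horizontal) for the 67 tested members of the Dicer series and the 70 of the Dgcr8 series, with the line of equal differences dashed and members called with the library set term in red. In the Dicer series 54 members lie in the lower left field, and in the Dgcr8 series Rpl39l and Rpl10l lie far to the upper right.

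Rpl39l and Rpl10l, copies of Rpl39 and Rpl10 best known from male germ cells, had the highest differences of the family in the Dgcr8 series, and Rpl39l had the lowest in the Dicer series. Rpl39l had 104, 193 and 61.1 normalised reads in the Dicer knockout against 477, 515 and 546 in TFC, and 361, 241 and 222 in the Dgcr8 knockout against 132, 76.2 and 35.1 in V6.5. In neither series did the groups overlap, and the directions were opposite. The log2 difference was -2.25 (SE 0.59, adjusted p in limma 0.120 and 0.0237 with the term) in the Dicer series and 1.91 (SE 0.61, adjusted p 0.175 and 0.0197 with the term in limma) in the Dgcr8 series. The wild-type lines themselves stood apart, at group means of 513 in TFC and 81.1 in V6.5 in tables scaled separately.

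The test of the difference between the knockouts, over 12 libraries and 66 members, gave Rpl39l a log2 difference of -4.15 (SE 0.83, adjusted p = 0.0973 in limma). With the library set term the adjusted p was 0.00906, with B and C alone 0.0231, and without V6.5 library A 0.0270. The shares of all genes lower in these were 0.916%, 2.90% and 0.212%. No member passed without such changes, where 0.154% of all genes did, and 1 had an unadjusted p under 0.05, against 7.05% of all genes. limma-voom was not run on this difference. Rpl10l had 771, 600 and 478 against 418, 560 and 394 in the Dicer series, with overlap, and 1125, 531 and 452 against 614, 101 and 92.4 in the Dgcr8 series. Only V6.5 library A, at 614, reached into the range of the knockout. Its log2 difference was 0.42 in the Dicer series and 1.85 in the Dgcr8 series, and the difference between them was -1.43 (SE 0.90, adjusted p in limma 0.880, and 0.0425 in B and C alone).

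The partner genes had smaller differences. Rpl39 had 4185, 3079 and 3088 normalised reads against 5924, 5998 and 4505 in the Dicer series (log2 difference -0.67, SE 0.24, adjusted p in limma 0.249 and 0.0186 with the term) and 3637, 1699 and 1406 against 4091, 2385 and 2156 in the Dgcr8 series, with overlap. Per kb of exon, TFC had a group mean of 12616 normalised reads for Rpl39 and 637 for Rpl39l. Rpl10 had 16244, 9280 and 9588 against 17459, 12535 and 11092 in the Dgcr8 series, and group means of 14190 and 21678 in the Dicer series.

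Rpl22l1, a paralogue of Rpl22 that can replace it on the ribosome, had 2474, 1888 and 2029 normalised reads in the Dicer knockout and 5058, 3395 and 3903 in TFC. The groups did not overlap (log2 difference -0.94, SE 0.25, adjusted p in limma 0.120 and 0.00274 with the term). In the Dgcr8 series it had 1396, 912 and 1041 against 2958, 1349 and 1246, where only knockout A exceeded a wild-type library (-0.64, SE 0.39, adjusted p 0.491 and 0.0559 with the term in limma). Rpl22 had 6755, 10864 and 11791 against 11160, 15602 and 15358 in the Dicer series (-0.54) and 5958, 7353 and 7432 against 6584, 7872 and 7788 in the Dgcr8 series (-0.10). Of the pair, the paralogue had the larger difference in either series, which was not tested.

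Rpl36al had 2978, 3598 and 3920 normalised reads against 4320, 5864 and 6347 in the Dicer series, without overlap (log2 difference -0.65, SE 0.25, adjusted p in limma 0.273 and 0.0120 with the term), and its partner Rpl36a, at -0.47, also did not overlap. In the Dgcr8 series they stood at -0.31 and -0.63. Rpl7l1 stood at -0.38 and -0.41 in the 2 series. Its partner Rpl7 had no test, with group means of 27268 against 43815 and 22018 against 26160. Rpl3l, the striated-muscle copy of Rpl3, was near 0 throughout, at group means of 7.16 and 8.18 in the Dicer series and 13.9 and 1.69 in the Dgcr8 series, and was not tested.

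**Figure D4:**
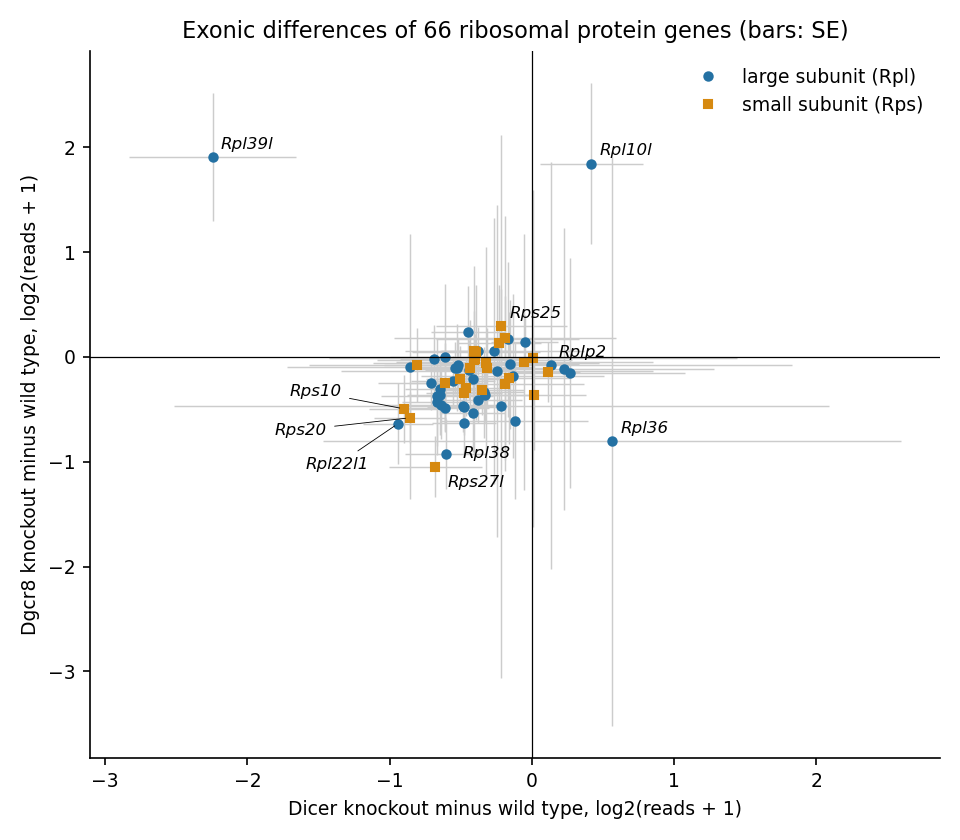
Log2 difference of knockout and wild type in the Dgcr8 series (vertical) against that in the Dicer series (horizontal) for 66 members tested in both, with the SE as bars and the subunits in different colours and shapes. Most points lie left of 0, Rpl39l lies alone at the upper left and the widest bars belong to genes such as Rpl36.

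Many of the most abundant members could be worked back in some groups only and were not tested. Rpl7 had the highest level per kb of exon in both wild-type lines, at 46961 normalised reads in TFC and 28039 in V6.5. Rpl4 (42164) and Rps23 (40013) followed in TFC, and Rps2 (26807) and Rpl4 (22268) in V6.5. The 3 V6.5 libraries ran from 22779 to 33188 per kb for Rpl7, from 17552 to 39386 for Rps2 and from 16162 to 25824 for Rpl4, so these neighbours in the order overlapped. In TFC, Rps23 ran from 27003 to 50387 per kb, a range that holds the means of Rpl7 and Rpl4, for which single libraries were not recovered. The lowest levels above 0 were those of Rpl3l (5.13), Rpl10l (447) and Rps15a (560) in TFC and of Rpl3l (1.06), Rpl39l (101) and Rpl10l (263) in V6.5. The Rps15a entry has a listed exon length of 5134 bases, which lowers its level per kb. Rps6, the S6 kinase substrate, had group means of 27583 against 40524 in the Dicer series and 23084 against 19871 in the Dgcr8 series. Rpsa, which is also known as the laminin receptor, had 31058 against 35624 and 27096 against 24355. Rps27a, made as a fusion with ubiquitin, had 7616, 10950 and 11050 against 9142, 14878 and 14118 in the Dicer series and 6069, 6689 and 6906 against 7183, 8843 and 8540 in the Dgcr8 series, lower without overlap only in the latter.

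Intronic reads, which come mostly from unspliced RNA, were also lower for most members. Of 81 tested in the Dicer series, 69 were lower, with a median log2 difference of -0.35 against 0.05 over 11625 genes. Of 80 in the Dgcr8 series, 63 were lower, with a median of -0.30 against -0.05 over 10748 genes. No member passed an adjusted p of 0.05 in limma (0.353% and 1.52% of all genes did) or in limma-voom (0.542% and 1.03%). Unadjusted p-values under 0.05 numbered 12 and 5 in limma, against 10.1% and 14.5% of all genes, and 8 and 8 in limma-voom, against 9.68% and 16.8%. The knockout lay below wild type without overlap in 15 and 9 members and above in 1 and 1, against 7.99% and 10.1% below and 9.27% and 9.61% above. Intronic libraries took the letters whose deviations from the group mean best followed the exonic ones. That match was weak, with Pearson r of 0.306 to 0.431 for A, 0.0934 to 0.187 for B and 0.0957 to 0.287 for C. Intronic letters are thus uncertain. Within library A, 58 of 81 and 43 of 80 were lower, against 51.0% and 50.2% of all genes. Medians were -0.22 and -0.08, against -0.01 and -0.01. In B and C, 64 of 80 and 62 of 78 were lower, against 47.9% and 52.6%. Medians were -0.49 and -0.41, against 0.06 and -0.06. Exons and introns were both lower in 51 and both higher in 1 of 66 members of the Dicer series. In the Dgcr8 series these were 47 and 5 of 69. Since most members were lower in each, such counts would be high without a link gene by gene. Pearson r of exonic with intronic differences was 0.294 in the Dicer series and 0.593 in the Dgcr8 series. Both values include Rpl39l, the lowest member in exons and introns of the Dicer series. It was the highest in both of the Dgcr8 series, at 1.91 and 3.64, with few intronic reads. A value without Rpl39l was not worked out, so r does not speak for the other members.

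Rplp0 had 121, 48.7 and 42.8 intronic normalised reads in the Dgcr8 knockout against 308, 145 and 140 in V6.5, without overlap (log2 difference -1.53, SE 0.50, adjusted p in limma 0.169). With the library set term it was the only member called in introns of that series, at 0.0305, where 1.59% of all genes were lower. Rpl39l introns followed its exons: 12.6, 0 and 0 reads in the Dicer knockout against 42.2, 0 and 58.7 in TFC, and 46.1, 51.6 and 83.4 in the Dgcr8 knockout against 29.6, 0 and 2.5 in V6.5 (log2 difference 3.64, SE 1.25, adjusted p in limma 0.186). Libraries of this gene thus held few intronic reads, and the Dicer groups overlapped. The other low ends were Rpl36al (-1.51) and Rpl15 (-1.47) in the Dicer series and Rpl36al (-1.48) and Rpl37 (-1.15) in the Dgcr8 series. The high ends were Rpl3l (2.43), Rps20 (2.28) and Rps21 (1.18) in the Dicer series, and Rpl39l, Rplp1 (0.96) and Rps28 (0.69) in the Dgcr8 series. Rps20 had 147, 142 and 94.6 intronic reads against 133, 0 and 131, and without the wild-type library at 0 its log2 difference was -0.076. Its exonic reads, by contrast, were lower in the knockout.

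In GENCODE M21 (GRCm38), 30 members with introns hold 58 snoRNA genes on their own strand. Their median intronic log2 difference was -0.32 in the Dicer series and -0.36 in the Dgcr8 series, and that of members without a snoRNA gene was -0.45 and -0.26. Of the 30 hosts, 24 and 25 were lower.

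**Figure D5:**
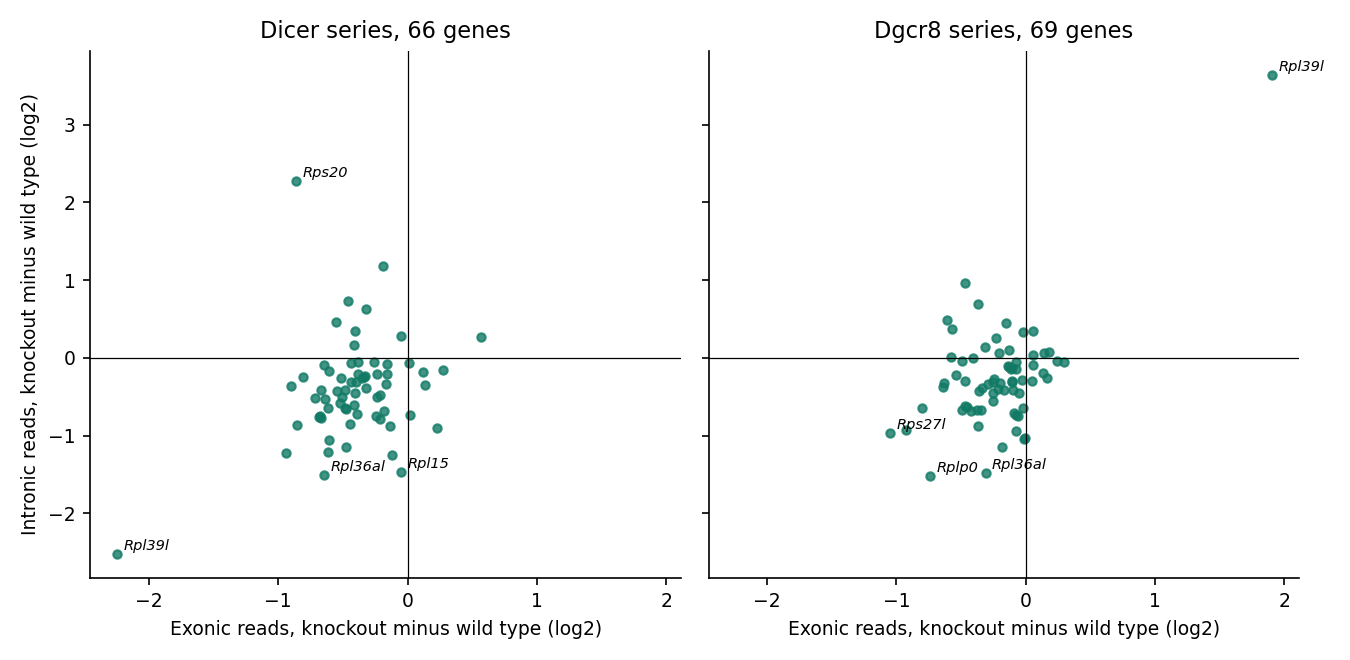
Log2 difference of knockout and wild type in intronic reads (vertical) against exonic reads (horizontal) for 66 members of the Dicer series and 69 of the Dgcr8 series. Most points lie in the lower left field, Rpl39l lies at opposite corners in the 2 panels, and Rps20 is high in Dicer introns alone.

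Other genes of ribosome production were taken from lists. Of all genes, 50.6% were lower in Dicer exons and 54.3% in Dgcr8 exons, and limma called 1.25% and 1.26%. With the library set term 4.95% of all genes were lower and 7.25% higher in Dicer exons, and 8.62% and 8.33% in Dgcr8 exons. Of 79 mitochondrial ribosomal protein genes, which share the name but belong to another ribosome, 61 were lower in the Dicer series (median -0.40) and 51 in the Dgcr8 series (median -0.14), with 0 called by limma in either and with the library set term 12 and 8 lower and 0 and 1 higher. Their medians are near those of the cytosolic genes. Of 55 ribosome biogenesis genes tested, 46 were lower in the Dicer series (median -0.37) and 39 in the Dgcr8 series (median -0.25). Limma called 0 in the first and 1 in the second, Nip7, which fell by 1.52 on the log2 scale (adjusted p = 0.0436 in limma). With the library set term 10 were lower and 1 higher in the Dicer series and 4 and 3 in the Dgcr8 series. Nucleolin (Ncl) had group means of 102567 against 165360 and 91412 against 73309, and fibrillarin (Fbl) had log2 differences of -0.07 and -0.20. Of TOP-bearing translation factors and related genes, 7 of 8 tested were lower in the Dicer series and 8 of 12 in the Dgcr8 series, with 0 called, and with the set term 3 lower and 1 higher and 1 lower and 1 higher. Group means of Pabpc1 were 26694 against 46573 and 25818 against 32379, those of Eef2 44930 against 69111 and 42710 against 44094, those of Eef1a1 357809 against 406288 and 309865 against 272105, and those of Npm1 56652 against 82853 and 31162 against 46410. Tpt1 had a log2 difference of -0.32 in the Dicer series. All 5 were lower in the Dicer knockout mean, and Eef1a1 was above V6.5 in the Dgcr8 knockout mean.

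Of the genes that regulate TOP translation, 13 of 17 tested were lower in the Dicer series. In the Dgcr8 series 11 of 16 were lower, and 0 were called in either. With the set term 3 and 2 were lower and 0 higher, beside the shares of all genes given for the lists above. Larp1, which binds the tract, had log2 differences of -0.40 and -0.25, and the kinase gene Mtor -0.06 and 0.25. Eif4ebp1, a translation repressor under mTOR, had 3309, 862 and 1094 normalised reads against 6154, 1863 and 2098 in the Dicer series (-0.98, adjusted p in limma 0.498 and 0.00412 with the term). Of 7 Myc network genes, 0 were called in either series. Myc, a transcription factor that drives ribosome production, had 208, 145 and 157 against 442, 768 and 1070 in the Dicer series and 367, 180 and 232 against 1287, 484 and 704 in the Dgcr8 series. It was lower without overlap in both (-2.08 and -1.61, adjusted p in limma 0.0891 and 0.142, and 0.0110 and 0.00382 with the term). Mycn was higher in both means, at 0.48 and 0.47. With the term in limma it was called higher in the Dicer series, where 7.25% of all genes were, and not in the Dgcr8 series. With B and C alone it was called in neither. The ribosome-bound Rack1 and the fusion gene Fau had log2 differences of -0.27 and -0.10 in the Dicer series and -0.42 and 0.08 in the Dgcr8 series.

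Over the 12 exonic libraries, after each table's mean was removed, the genes with profiles most like that of Rpl22l1 were Dhodh (Pearson r 0.969), Slc7a5 (0.959), Fblim1 (0.948), Slc3a2 (0.941) and Rnaseh2a (0.936), out of 12334. Those most like Rps27l were Arpc4 (0.971), Blmh (0.965), Mrpl11 (0.961), Nutf2 (0.959) and Tdg (0.958). These genes share the A libraries and the depths of the same 12 points.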

How the data were processed

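Polyadenylated RNA of 12 mouse libraries (4 groups of 3) was measured. The authors deposited normalised read signal per gene, exons and introns apart, as 1 mean a group, with TopHat2 2.0.12, DESeq and mm10 named in the submitters' processing notes. The sources used here do not give how reads shared with pseudogenes, or strand, were counted, so members with near-identical copies are uncertain. Each mean is a sum of whole reads times 1 step a library, and the reads were worked back from 15 digits. Genes with exactly 1 solution were used, 99.5% to 100% a column. Since the genes left out are abundant, those used held less of the exonic signal. Their share was 85.5% in the Dicer knockout, 81.7% in TFC, 83.7% in the Dgcr8 knockout and 95.2% in V6.5. Groups came from the labels. The main test was limma 3.58.1 (R 4.3.3) on log2(signal + 1), genes with a mean of at least 10, Benjamini-Hochberg, threshold 0.05. Scripts were tested on simulated data. Genes with values were named by rule: extremes of difference and of level, paralogues and partners, stalk and signalling members. Members and lists were chosen with earlier results of these data known. Alternatives are in the closing section. Member counts at or near the share of all genes are not read as results about the members.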

Additional observations from a re-analysis of the deposited data

Results flagged for a closer look

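Rpl39l differed between the series: its 3 Dicer knockout libraries lay below all 3 of TFC, and its 3 Dgcr8 knockout libraries lay above all 3 of V6.5. The difference of the 2 effects was -4.15 on the log2 scale, with an adjusted p in limma of 0.0973, so it missed the threshold over all 12334 genes, and it passed at 0.00906 with a term for the library set. Group means were 119 against 513 normalised reads in the Dicer series and 275 against 81.1 in the Dgcr8 series.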

How the results depend on the processing

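The A libraries, which were picked from these same values, decide most of what passes. The count of members called was 0 in every comparison with all libraries and no further term. With a library set term it was 23 in Dicer exons, 6 in Dgcr8 exons, 1 in Dgcr8 introns and 1 in the difference between knockouts, and with libraries B and C only it was 8, 7, 0 and 2. Leaving out 1 library gave 0 to 1 in Dicer exons, Dgcr8 exons and the difference, each 1 without the wild-type library A of TFC or V6.5. Where that leaves an arm with 2 libraries, they are assumed to vary like the others. It was 0 under the other alternatives run: no variance trend, pseudocounts of 0.5 and 5, no filter, a mean of at least 100, and 3 chosen after seeing the data (upper-quartile scaling, limma-voom, and several solutions settled where only 1 has its 3 values within 3-fold). Medians moved by less than the spread of library medians (SD 0.32, 0.23, 0.65 and 0.46 in Dicer exons and introns and Dgcr8 exons and introns). Leaving out 1 library gave medians of -0.55 to -0.41, -0.56 to -0.31, -0.54 to 0.01 and -0.54 to -0.14.

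Signs turned for some members, and the cause was not tested. Over all tested members this was so in limma-voom for 2 of 67 in Dicer exons, 11 of 70 in Dgcr8 exons, 0 of 81 in Dicer introns and 7 of 80 in Dgcr8 introns, and with B and C only for 6, 6, 5 and 9. Leaving out 1 library turned 5 to 16, 6 to 25, 3 to 11 and 7 to 19. The values that follow are those of the genes named by rule, not of every such member. In limma-voom, Dicer exons gave Rplp2 -0.067, and Dgcr8 exons gave Rpl36 0.77, Rplp1 0.51, Rplp2 0.59 and Rps19 0.17. With B and C only, Rplp1 stood at 0.18 in Dicer exons and Rps19 at 0.083 in Dgcr8 exons. Leaving out 1 library gave log2 differences in Dicer exons of -1.67 to 0.10 for Rpl13, -0.69 to 1.41 for Rpl18, -1.23 to 2.89 for Rpl36, -0.45 to 1.20 for Rpl41, -2.36 to 2.32 for Rplp1, -1.51 to 1.97 for Rplp2 and -0.99 to 0.36 for Rps19, and in Dicer introns of -0.076 to 3.46 for Rps20. In Dgcr8 exons it gave -0.12 to 0.62 for Rpl14, -0.19 to 0.00038 for Rpl22, -3.61 to 1.66 for Rpl36, -0.25 to 0.015 for Rpl5, -2.98 to 2.06 for Rplp1, -1.94 to 1.79 for Rplp2, -0.79 to 0.85 for Rps19 and -0.87 to 1.36 for Rps21, and in Dgcr8 introns -0.61 to 1.93 for Rplp1.

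No paired analysis was possible because the labels' replicate numbers stand on no recovered library. The edgeR test and its TMM scaling were not run, since the deposited values are means of scaled reads and not counts. Members with more than 1 solution, mostly the most abundant, have no test, and depth limits introns of Rpl39l, Rpl36al and Rpl3l.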
